A study of Arabidopsis thaliana with 36 samples.

Results

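The 10 Arabidopsis genes described here carry nitrate into cells, reduce it to ammonium or repress the nitrate response, and they were followed through 36 seedling RNA libraries. They are NRT1.1 (AT1G12110), NRT2:1 (AT1G08090), WR3 (AT5G50200, also called NRT3.1), NIA1 (AT1G77760), NIA2 (AT1G37130), NIR1 (AT2G15620), G6PD3 (AT1G24280), LBD37 (AT5G67420), LBD38 (AT3G49940) and LBD39 (AT4G37540). The members were named by locus, and all 10 were found among the 32833 counted loci. The seedlings were hy5 mutants, phyAB mutants and the Col-0 accession, each at 27 °C or 21 °C by day, with roots and shoots collected apart and 3 libraries for each of the 12 groups. HY5, a bZIP factor of light signalling, is known to move from shoot to root, and PHYA and PHYB are the phytochromes A and B, receptors of red and far-red light. All plants had 16 h of light and 8 h of dark, with nights at 21 °C for the warm groups and 15 °C for the cooler ones, and were harvested at 6 days after germination. The labels give the warm period in 2 ways, as 4 h in the design and as the 3 days that followed a shift on day 3, so its length is unknown. The labels name no mutant alleles, and whether replicates were separate cultures is not said, so p-values measure the spread between these libraries, which may be technical.

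A plant root takes up nitrate through transporters of the plasma membrane, reduces it to nitrite in the cytosol and passes nitrite into plastids, where it becomes ammonium. NRT1.1 is both a transporter and the nitrate sensor of the root. NRT2:1 is the main high-affinity transporter and needs WR3 as its partner protein. NIA1 and NIA2 are the nitrate reductases, NIR1 is the nitrite reductase of the plastid, and G6PD3 is a plastid glucose-6-phosphate dehydrogenase that supplies reducing power for it. LBD37, LBD38 and LBD39 are transcription factors that nitrate induces and that repress genes of nitrate uptake and reduction, NRT2:1 among them.

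The genes lie on all 5 chromosomes and share no common neighbourhood. In TAIR10.1 coordinates NRT1.1 spans 1:4105223-4109601 on the forward strand, NRT2:1 1:2524023-2526322 forward, WR3 5:20436180-20437815 forward, NIA1 1:29235721-29239484 reverse and NIA2 1:14158452-14161938 forward. NIR1 spans 2:6810395-6812941 forward, G6PD3 1:8609338-8612580 forward, LBD37 5:26903866-26906524 reverse, LBD38 3:18514266-18516131 forward and LBD39 4:17639393-17640925 reverse. Of the 10, only G6PD3 overlaps other annotated genes in this annotation, namely the antisense transcript AT1G05867 and the neighbour AT1G24290. The libraries are stranded, but the sources used here do not give the strand setting of the counting, so reads of the antisense transcript cannot be told apart from those of G6PD3.

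Short stretches before the coding sequence are shown for the motif of the nitrate response and for ACGTG, part of the G-box that HY5 binds. Other letters that HY5 may bind were not searched. The 500 bases before the first coding base of 27444 coding genes were searched on both strands in the TAIR10.1 genome. The nitrate-responsive cis-element, searched as TGAC, any base, CTT, 10 bases of any kind and AAG, was in 27 genes (0.0984%) and in 1 of the 10 members, NIR1, 94 bases before its first coding base. The G-box CACGTG was in 9.34% of genes and in 0 of 10 members. The letters ACGTG, which every G-box also holds, were in 34.9% of genes and in 3 of 10 members, NIA2, NIR1 and G6PD3. A match is a description of letters and not of a bound site, and the absence of a match says only that these letters are not in this window. In these stretches, read 5′ to 3′ on the forward strand, which is the strand of all 3 genes, capitals mark the letters of the motif. Coordinates and places are those of the whole stretch. In NIA2 the capitals lie before the annotated start of the gene, and only the letters after them cross it.
NIR1, nitrate-responsive cis-element, chr2:6810454-6810482, in the annotated 5′ untranslated exon: aactTGACcCTTtacattgctcAAGagct
NIR1, ACGTG on the reverse strand, chr2:6810498-6810526, in the same exon: caaaaatggccgCACGTctccaaccttct
NIA2, ACGTG, chr1:14158430-14158458, across the annotated start of the gene: aaatggtcccatACGTGtgattcggcacg
G6PD3, ACGTG, chr1:8609366-8609394, in the annotated 5′ untranslated exon: aacctttgggagACGTGaaaaggctcaaa

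Libraries held 14810514 to 24006279 reads in genes, and levels are given as counts per 1000000 reads (CPM), with TMM scaling inside each organ. Summed levels of 12 root markers were 5677 to 10666 CPM in roots and 2261 to 4463 CPM in shoots, and those of 14 shoot markers were 38.4 to 770.2 CPM in roots and 100925 to 163947 CPM in shoots, on a scale common to both organs. Both phyAB root libraries numbered 3 carry a shoot source name, yet their titles and tissue labels say root. The warm one had a root marker sum of 6786 CPM and a shoot marker sum of 195 CPM, and the cooler one had 5677 CPM, the lowest of all root libraries, and 106 CPM. The 3 shoot libraries numbered 3 at 27 °C stood apart, with 34.6% (labelled hy5), 28.8% (phyAB) and 27.8% (Col-0) of reads at more than 1 place, against 8.29% to 16.5% in the other shoot libraries. HY5 transcript was 12.9 ± 1.55 CPM in hy5 roots and 48.5 ± 2.27 CPM in Col-0 roots at 27 °C (SD, n = 3 each), and PHYA was 20.1 ± 2.20 CPM in phyAB roots and 184 ± 2.21 CPM in Col-0 roots. PHYA was also lower in phyAB shoots, with 42.0 ± 3.79 CPM against 141 ± 10.4 CPM in Col-0 shoots at 27 °C. PHYB was 32.7 ± 1.73 CPM in phyAB roots and 92.5 ± 6.80 CPM in Col-0 roots at 27 °C. In shoots PHYB did not pass at 27 °C, with 60.4 ± 3.79 CPM in phyAB and 68.1 ± 3.61 CPM in Col-0 (edgeR, adjusted p = 0.0621), and it was lower at 21 °C, with 61.0 ± 0.878 CPM in phyAB and 79.4 ± 9.04 CPM in Col-0 (edgeR, adjusted p = 0.000426). In the shoots labelled hy5, HY5 did not differ from Col-0 by the test, with 5.67 ± 0.470 CPM against 7.32 ± 0.693 CPM at 27 °C (edgeR, adjusted p = 0.23) and 7.62 ± 0.449 CPM against 7.75 ± 2.07 CPM at 21 °C (edgeR, adjusted p = 0.938). The transcript of the named gene therefore checks the hy5 label in roots and not in shoots, while the phyAB label is checked by PHYA in both organs and by PHYB in roots and in shoots at 21 °C.

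In Col-0 seedlings at 21 °C the uptake genes stood higher in roots and the reductases higher in shoots. This comparison of organs used 1 fit of all 36 libraries and a scale common to both organs. Of the 10 genes, 5 were higher in roots (background 40.5% of genes) and 3 were lower in roots (background 38.1%), by edgeR's quasi-likelihood test at an adjusted p of 0.05. These counts are near the share of all genes and say little about the members as a set. NRT2:1 had 11.0, 27.3 and 18.2 CPM in roots, against 3.23, 3.02 and 3.38 CPM in shoots, a log2 difference of 2.55 ± 0.32 (SE). Every root library stood above every shoot library. WR3, its partner, was also higher in roots by 1.35 ± 0.12, as were G6PD3 by 1.35 ± 0.10, LBD38 by 0.99 ± 0.068 and NRT1.1 by 0.84 ± 0.12, all on the log2 scale. NIA2 had 283, 289 and 275 CPM in roots, against 973, 950.1 and 1036 CPM in shoots, which gave -1.80 ± 0.11. NIA1 gave -1.90 ± 0.19 and NIR1 -0.73 ± 0.091, so all 3 reductase genes were lower in roots. LBD37 and LBD39 did not pass, with 0.10 ± 0.057 (adjusted p = 0.11; 0.14 and 0.041 without Col-0 shoot replicate 1) and 0.02 ± 0.076 (adjusted p = 0.792).

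Read per length of the gene's exons, as RPKM, joint CPM per kilobase, the members spanned a wide range within each organ. In Col-0 roots at 21 °C the RPKM level was 172 ± 24.9 for NRT1.1 and 154 ± 15.7 for NIR1, followed by NIA2 at 88.1 ± 2.11 and WR3 at 70.8 ± 6.37 RPKM (SD, n = 3 each). NRT2:1, at 8.93 ± 3.85 RPKM, was the lowest of the 10. In Col-0 shoots at 21 °C NIA2 led with 308 ± 13.8 RPKM, and NIR1 followed with 256 ± 11.2 RPKM, NRT1.1 with 96.5 ± 7.12 and NIA1 with 85.5 ± 17.1 RPKM. NRT2:1 was again lowest, at 1.52 ± 0.0842 RPKM. The 3 LBD genes stood between 30.5 ± 1.51 and 53.2 ± 2.61 RPKM in these roots and between 26.7 ± 2.23 and 36.5 ± 2.23 RPKM in these shoots.

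In Col-0 roots the nitrate genes fell together at 27 °C. Of the 10 genes, 9 were lower at 27 °C, against a background of 21.8% of the 20355 genes tested, and 0 were higher, against 21.7%. No member was higher at an unadjusted p under 0.05 or by DESeq2 either. The median log2 fold change was -0.72 over the 10 members and 0.00 over all genes tested. The largest change among them was that of NRT2:1, with 4.48, 2.28 and 4.03 CPM at 27 °C, against 14.4, 35.2 and 23.9 CPM at 21 °C (log2 fold change -2.76 ± 0.29 SE, edgeR adjusted p = 8.97e-07). The libraries of the 2 temperatures did not overlap, although those at 21 °C spread widely. As many as 8.86% of the 50-base stretches of NRT2:1 also occur elsewhere in the genome, and reads that fit several places were not counted, so its level is read from the remainder.

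**Figure D1:**
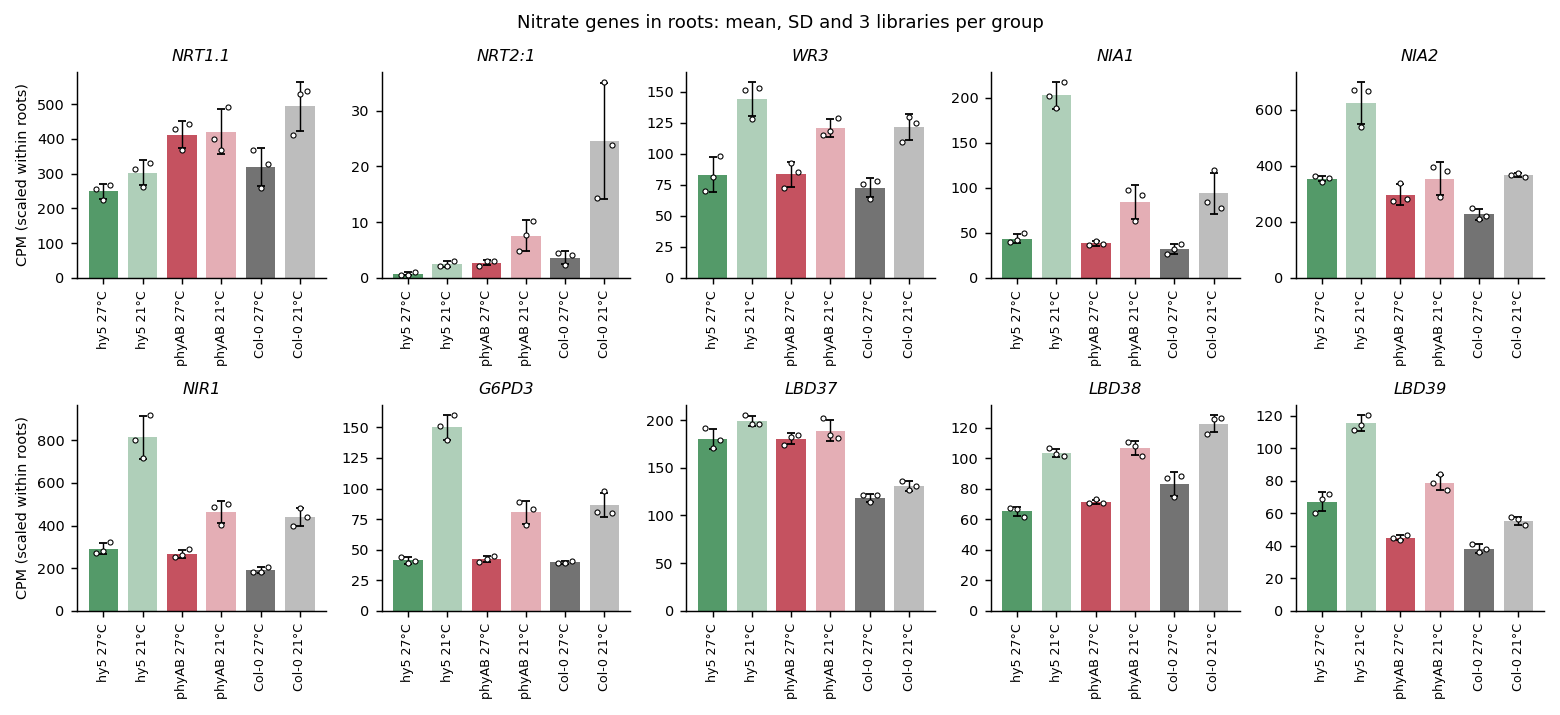
Levels of the 10 nitrate genes in roots, in CPM scaled within roots, with 1 panel per gene. Bars are group means, error bars the SD of 3 libraries and circles the single libraries, darker bars 27 °C and paler bars 21 °C. In Col-0 NIR1 averaged 191 ± 13.2 CPM at 27 °C and 439 ± 42.2 CPM at 21 °C, and in hy5 291 ± 26.6 and 814 ± 101 CPM.

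All 4 genes of reduction fell in Col-0 roots. NIA1 had 26.1, 32.5 and 37.2 CPM at 27 °C, against 84.4, 119.6 and 77.6 CPM at 21 °C (-1.56 ± 0.17). NIR1 had 183, 183 and 206 CPM at 27 °C, against 398, 482 and 439 CPM at 21 °C (-1.20 ± 0.10). G6PD3 had 38.7, 38.9 and 40.8 CPM at 27 °C, against 81.1, 97.9 and 80.2 CPM at 21 °C (-1.13 ± 0.089). In each of these 3 genes all libraries at 27 °C lay below all at 21 °C, and how many of all genes do so was not counted. The more abundant reductase gene NIA2 changed less, to 226 ± 20.4 CPM at 27 °C, against 368 ± 6.07 CPM at 21 °C (-0.70 ± 0.11). The remaining uptake genes fell too, with log2 fold changes of -0.74 ± 0.12 for WR3 and -0.63 ± 0.13 for NRT1.1. The edgeR adjusted p-values of the called members in this comparison ran from 4.49e-08 for G6PD3 to 0.000946 for NRT1.1.

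The repressor genes all had lower means in Col-0 roots at 27 °C, but LBD37 fell just short of the threshold. LBD38 had 87.3, 74.3 and 88.5 CPM in Col-0 roots at 27 °C, against 116, 126 and 126 CPM at 21 °C (-0.56 ± 0.065, adjusted p = 2.1e-06). LBD39 had 41.1, 35.9 and 37.7 CPM at 27 °C, against 57.4, 56.2 and 52.6 CPM at 21 °C (-0.54 ± 0.072). LBD37 had 121, 114 and 121 CPM at 27 °C, against 136, 126 and 131 CPM at 21 °C, and did not pass (-0.15 ± 0.059, edgeR adjusted p = 0.0519), although its ranges did not overlap. It passed with only the compared groups (-0.14, adjusted p = 0.0453) and with the replicate numbers as a block (-0.15, adjusted p = 0.0308), which do not pair these libraries. The 95% confidence interval of its change, -0.27 to -0.02 on the log2 scale, lies apart from the intervals of LBD38 (-0.70 to -0.42) and LBD39 (-0.69 to -0.38), and the difference between the genes was not tested. Shoot markers moved in the same libraries, with a summed level of 628 to 770.2 CPM in Col-0 roots at 27 °C and 271 to 340.4 CPM at 21 °C, over 14 genes none of which was at 0, and the part of this in the result was not tested. In bulk samples fewer cells of a type and less RNA per cell cannot be told apart.

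Roots of both mutants also had lower nitrate transcripts at 27 °C. In hy5 roots 9 members were lower (background 23.9%) and 0 were higher (25.7%), with a median log2 fold change of -0.81. In phyAB roots 7 were lower (19.2%) and 0 higher (19.2%), with a median of -0.69. In neither root was a member higher at an unadjusted p under 0.05 or by DESeq2. NIA1 in hy5 roots had 39.4, 41.6 and 49.6 CPM at 27 °C, against 202, 188 and 218 CPM at 21 °C (-2.22 ± 0.17, adjusted p = 1.23e-08). G6PD3 in hy5 roots had 44.1, 38.8 and 40.8 CPM at 27 °C, against 151, 139.7 and 159.9 CPM at 21 °C (-1.87 ± 0.091, adjusted p = 9.95e-11). Both genes were read without overlap between temperatures, whose share over all genes was not counted. NRT2:1 in hy5 roots was near the floor of detection, with 10 to 17 reads per library at 27 °C and 42 to 47 at 21 °C, and its log2 fold change was -1.80 ± 0.54. NRT1.1 did not pass in hy5 roots (-0.28 ± 0.14, adjusted p = 0.0934) or in phyAB roots (-0.03 ± 0.13, adjusted p = 0.895). In hy5 roots it passed without hy5 replicate 2 at 21 °C (-0.37, adjusted p = 0.0452) and with only the compared groups (-0.29, adjusted p = 0.0275). It also passed there with the replicate numbers as a block (-0.28, adjusted p = 0.0365), in a comparison whose numbers do not pair the libraries. LBD37 just passed in hy5 roots (-0.15 ± 0.058, adjusted p = 0.0466), and the call was lost without any hy5 replicate at 21 °C or without replicate 2 or 3 at 27 °C, with values between -0.16 and -0.11 and adjusted p-values of 0.0637 to 0.192. That call was also lost with only the compared groups (-0.16, adjusted p = 0.0644) and without the filter on low counts (-0.15, adjusted p = 0.0611). In phyAB roots LBD37 (-0.07 ± 0.058) and NIA2 (-0.25 ± 0.11, adjusted p = 0.0791) did not pass, while LBD39 (-0.82 ± 0.072) and NIR1 (-0.80 ± 0.10) fell. Without the phyAB replicate 2 at 21 °C, NIA2 passed in phyAB roots (-0.38, adjusted p = 0.00589), and likewise without replicate 2 at 27 °C (-0.35, adjusted p = 0.0264). Shoot markers summed to 77.8 to 157 CPM in hy5 roots at 27 °C and 38.4 to 48.5 CPM at 21 °C, and to 195 to 446 and 106 to 181 CPM in phyAB roots, and their part in these results was not tested.

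**Figure D2:**
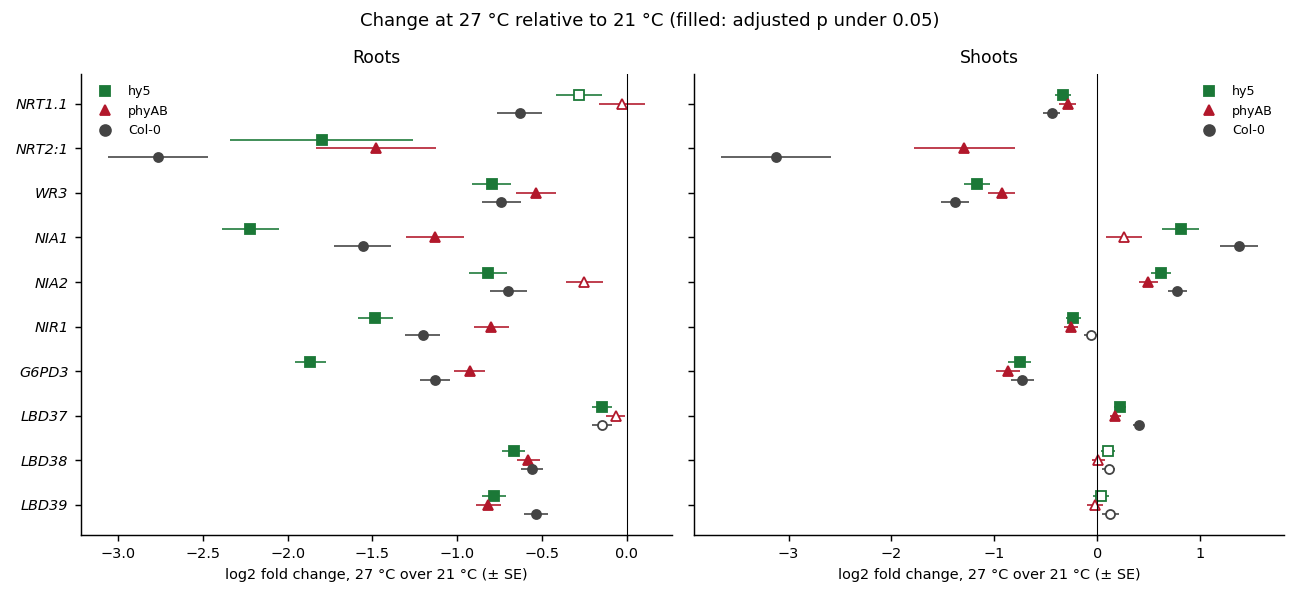
Change of each nitrate gene at 27 °C relative to 21 °C, as log2 fold change with its SE, in roots and shoots of hy5, phyAB and Col-0. Filled symbols passed an adjusted p of 0.05 and open symbols did not. In roots all called symbols lie left of 0, and in shoots NIA2 and LBD37 lie right of 0 in all 3 genotypes. NRT2:1 is not drawn for hy5 shoots, where libraries at 27 °C held 0 to 2 reads.

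In Col-0 shoots the same genes moved both ways at 27 °C. Of the 10 genes, 3 rose (background 22.5% of the 20100 genes tested) and 4 fell (23.2%), and the median log2 fold change was 0.02. NIA1 had 483, 597 and 546 CPM at 27 °C, against 188, 180.1 and 257 CPM at 21 °C (1.38 ± 0.18, adjusted p = 7.9e-06). NIA2 had 1338, 1359 and 1227 CPM at 27 °C, against 753, 729.8 and 803 CPM at 21 °C (0.78 ± 0.10, adjusted p = 3.87e-06). Both reductase genes were thus higher in every library at 27 °C than in any at 21 °C, and how many of all genes were so was not counted. LBD37 rose by 0.40 ± 0.057, with 94.0, 96.1 and 97.6 CPM at 27 °C, against 77.0, 67.6 and 73.1 CPM at 21 °C. NIR1, which acts after the nitrate reductases, had 413, 441 and 391 CPM at 27 °C, against 437, 448 and 414 CPM at 21 °C, and did not pass (-0.06 ± 0.070, adjusted p = 0.503). The interval of its change was -0.21 to 0.09 on the log2 scale. LBD38 (0.11 ± 0.066) and LBD39 (0.13 ± 0.079) did not pass either. Without the shoot libraries numbered 3 at 27 °C, 3 members rose and 4 fell. The shoot marker sum was 158513 to 163947 CPM in these warm libraries and 127225 to 143785 CPM in the cooler ones, and its part in these changes was not tested.

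The uptake genes and G6PD3 fell in Col-0 shoots as they did in roots. WR3 had 9.96, 10.4 and 12.2 CPM at 27 °C, against 28.7, 27.9 and 28.1 CPM at 21 °C (-1.38 ± 0.13, adjusted p = 2.57e-07). G6PD3 fell to 12.1 ± 0.730 CPM at 27 °C, against 20.2 ± 0.595 CPM at 21 °C (-0.73 ± 0.11), and NRT1.1 to 121 ± 15.9 CPM, against 164 ± 12.4 CPM (-0.44 ± 0.079). NRT2:1 was scarce in shoots, with 0, 0.102 and 0.762 CPM at 27 °C, from 0 to 14 reads, against 2.50, 2.32 and 2.62 CPM at 21 °C, from 43 to 59 reads (-3.12 ± 0.54, adjusted p = 0.000133). Replicate 3, one of the libraries that stood apart, held nearly all of its reads at 27 °C, and no fold is given for the other 2.

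In the shoots of both mutants the members that were also called in Col-0 had the directions of Col-0. NIR1 was called lower as well, but its response did not differ by the test from that of Col-0, in shoots labelled hy5 (-0.17 ± 0.10, adjusted p = 0.621) or in phyAB shoots (-0.19 ± 0.10, adjusted p = 0.314). In shoots labelled hy5, 3 members rose (background 23.1%) and 5 fell (22.5%), and in phyAB shoots 2 rose (21.3%) and 5 fell (22.1%). Without the shoot libraries numbered 3 at 27 °C, 3 rose and 4 fell in shoots labelled hy5, NIR1 no longer passing (-0.19, adjusted p = 0.0651), and 2 rose and 5 fell in phyAB shoots. NIA2 rose by 0.62 ± 0.10 in shoots labelled hy5 and by 0.50 ± 0.10 in phyAB shoots, and WR3 fell in both (-1.17 ± 0.13 in shoots labelled hy5 and -0.93 ± 0.13 in phyAB shoots). NIA1 had 574, 525 and 419 CPM in shoots labelled hy5 at 27 °C, against 226, 328 and 310.4 CPM at 21 °C (0.81 ± 0.18, adjusted p = 0.00118). In phyAB shoots it had 364, 344 and 334 CPM at 27 °C, against 205, 338 and 328 CPM at 21 °C, and did not pass (0.26 ± 0.18, adjusted p = 0.255). Those phyAB libraries overlapped between temperatures, with replicate 1 low at 21 °C. NIR1 fell slightly in both, with log2 fold changes of -0.23 ± 0.070 in shoots labelled hy5 (adjusted p = 0.0114) and -0.25 ± 0.070 in phyAB shoots (adjusted p = 0.00686). Without replicate 3 at 27 °C the fall in shoots labelled hy5 was -0.19 (adjusted p = 0.0615), and without replicate 3 at 21 °C that in phyAB shoots was -0.17 (adjusted p = 0.0542). NRT2:1 passed in both, but shoots labelled hy5 had 0 to 2 reads per library at 27 °C, so no fold is given or drawn for them. In phyAB shoots NRT2:1 had 9 to 19 reads at 27 °C and 22 to 40 at 21 °C (-1.29 ± 0.49, adjusted p = 0.0401), and the call was lost without replicate 2 or 3 at 21 °C or replicate 1 or 3 at 27 °C, with values between -1.25 and -1.08 and adjusted p-values of 0.0793 to 0.125.

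**Figure D3:**
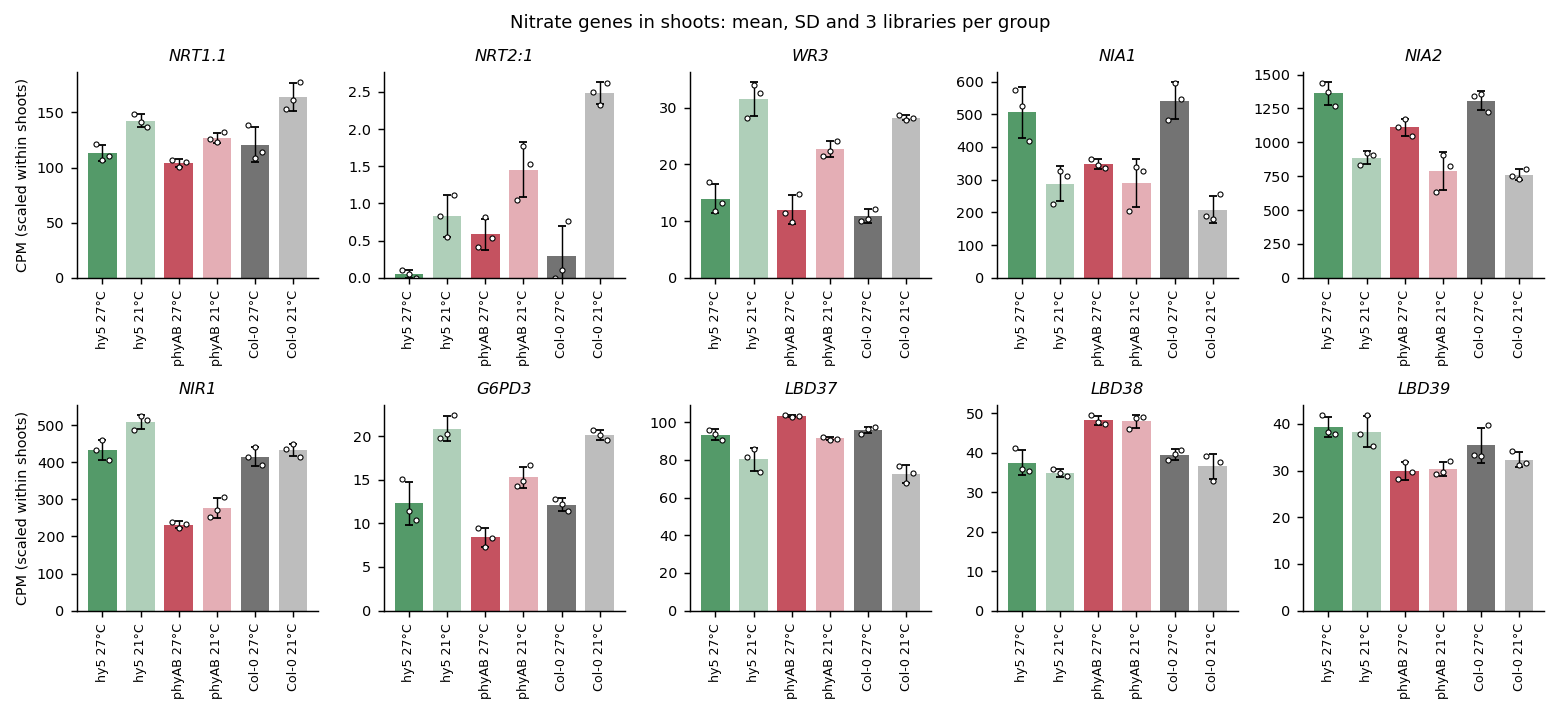
Levels of the 10 nitrate genes in shoots, in CPM scaled within shoots, drawn as for roots. In Col-0 NIA1 averaged 542 ± 57.3 CPM at 27 °C and 209 ± 42.5 CPM at 21 °C, and in phyAB 347 ± 15.0 and 290.0 ± 73.9 CPM.

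The response to warmth differed between root and shoot for most of these genes. In Col-0 the root response was lower than the shoot response for 6 members (background 6.92% of 21598 genes) and higher for 1 (8.83%), by a test of the difference itself in the fit of all libraries. The difference was -2.93 ± 0.27 for NIA1, -1.48 ± 0.16 for NIA2 and -1.14 ± 0.13 for NIR1. It was -0.54 ± 0.081 for LBD37, -0.66 ± 0.10 for LBD38 and -0.66 ± 0.11 for LBD39, so all 3 repressor genes were among the 6. WR3 was the 1 member with a higher value in roots, since it fell less there (0.65 ± 0.18, adjusted p = 0.0158). NRT1.1 (-0.18 ± 0.16), NRT2:1 (0.37 ± 0.71) and G6PD3 (-0.40 ± 0.15, adjusted p = 0.0594) did not pass, and G6PD3 passed without the Col-0 root replicate 3 at 21 °C (-0.46, adjusted p = 0.0399). In hy5 the root response was lower for 7 members (6.69%) and higher for 0 (10.1%), and in phyAB it was lower for 5 (4.46%) and higher for 0 (7.12%). DESeq2 also called 0 members higher in either mutant, and 1 in each, WR3, was higher at an unadjusted p under 0.05. WR3 passed in hy5 without the shoot replicate 1 at 27 °C (0.56, adjusted p = 0.0459) and in phyAB without the shoot replicate 3 at 27 °C (0.58, adjusted p = 0.0431). LBD37 did not pass in phyAB (-0.23 ± 0.080, adjusted p = 0.0592) and did so without the root replicate 3 at 21 °C (-0.27, adjusted p = 0.0338). For NIA1 the difference was -3.01 ± 0.26 in hy5 and -1.37 ± 0.26 in phyAB. Without the shoot libraries numbered 3 at 27 °C the root response was lower for 6 members and higher for 1 in Col-0, and lower for 7 in hy5. In phyAB it was then lower for 5 and higher for 1, WR3 (0.58, adjusted p = 0.0467), and LBD37 passed without both phyAB root libraries of conflicting source name (-0.28, adjusted p = 0.0476).

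Roots of hy5 at 21 °C had more transcript of the reduction genes and less of the transporter NRT2:1 than Col-0 roots. Of the 10 members, 6 were higher in hy5 (background 16.7%) and 3 lower (18.4%). NIR1 had 801, 719.5 and 921 CPM in hy5 roots, against 398, 482 and 439 CPM in Col-0 roots (0.89 ± 0.10, adjusted p = 1.36e-06). LBD39 had 111, 114 and 121 CPM in hy5 roots, against 57.4, 56.2 and 52.6 CPM in Col-0 roots (1.06 ± 0.070, adjusted p = 9.31e-10). NRT2:1 had 2.16, 2.09 and 3.04 CPM in hy5 roots, against 14.4, 35.2 and 23.9 CPM in Col-0 roots (-3.36 ± 0.32, adjusted p = 1.53e-07). None of these 3 genes overlapped between the genotypes, and the share of all genes without overlap was not counted. NIA1 was higher by 1.11 ± 0.16, G6PD3 by 0.80 ± 0.087, NIA2 by 0.76 ± 0.11 and LBD37 by 0.61 ± 0.059. NRT1.1 (-0.71 ± 0.13) and LBD38 (-0.25 ± 0.065) were lower, and WR3 did not pass (0.25 ± 0.11, adjusted p = 0.103). Within the LBD group, therefore, LBD37 and LBD39 were higher and LBD38 was lower in the same libraries. Shoot markers summed to 38.4 to 48.5 CPM in hy5 roots and 271 to 340.4 CPM in Col-0 roots at 21 °C (over 14 genes, none at 0), and their part in these differences was not tested.

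At 27 °C the hy5 roots differed from Col-0 roots in 7 members, 4 of them higher (background 16%) and 3 lower (17.4%). LBD39 (0.81 ± 0.072), NIA2 (0.65 ± 0.11), NIR1 (0.61 ± 0.10) and LBD37 (0.61 ± 0.059) were higher, and NRT2:1 (-2.39 ± 0.49) and LBD38 (-0.35 ± 0.066) lower. G6PD3 did not differ by the test at this temperature, with 44.1, 38.8 and 40.8 CPM in hy5 roots, against 38.7, 38.9 and 40.8 CPM in Col-0 roots (0.06 ± 0.091, interval -0.14 to 0.26). NIA1 did not pass (0.45 ± 0.17, edgeR adjusted p = 0.0522), and it passed with DESeq2 (0.45, adjusted p = 0.0312) and without Col-0 replicate 3 (0.57, adjusted p = 0.0315). It also passed without the filter on low counts (0.44, adjusted p = 0.0385) and with only the compared groups (0.43, adjusted p = 0.0219). The call on NRT1.1 (-0.36 ± 0.13, adjusted p = 0.0499) was lost without Col-0 replicate 1 or 3 or without any hy5 replicate, with values between -0.41 and -0.24 and adjusted p-values of 0.0569 to 0.219. Shoot markers summed to 77.8 to 157 CPM in hy5 roots and 628 to 770.2 CPM in Col-0 roots at 27 °C, and their part in these differences was not tested.

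**Figure D4:**
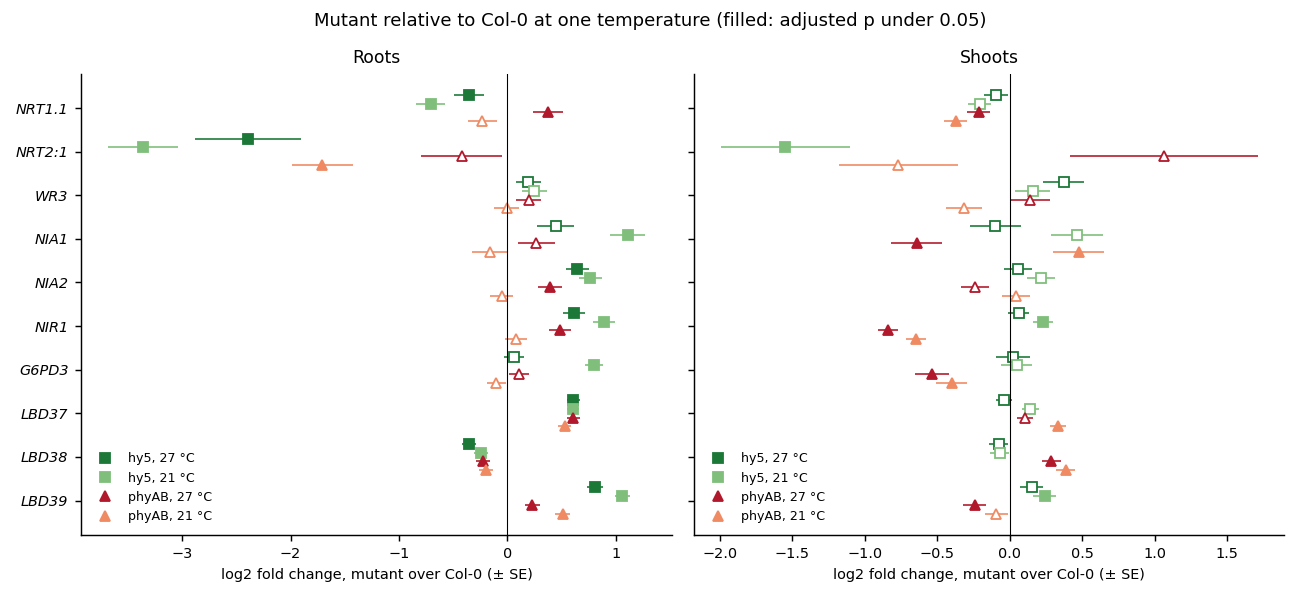
Difference of each nitrate gene between mutant and Col-0 at 1 temperature, as log2 fold change with its SE, with filled symbols past an adjusted p of 0.05. In roots the hy5 values of LBD37 and LBD39 lie right of 0 and those of LBD38 and NRT2:1 left of it at both temperatures. In shoots NIR1 lies left of 0 in phyAB at both temperatures, and NRT2:1 is not drawn for hy5 at 27 °C, with 0 to 2 reads per hy5 library.

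In phyAB roots at 21 °C, 2 members were higher than in Col-0 roots (background 17.2%) and 2 lower (17.9%), counts near the share of all genes. LBD37 had 202, 184 and 181 CPM in phyAB roots, against 136, 126 and 131 CPM in Col-0 roots (0.53 ± 0.059, adjusted p = 1.18e-06). LBD39 was higher by 0.51 ± 0.071, and LBD38 was lower (-0.20 ± 0.065, adjusted p = 0.0201). The call on LBD38 was lost without Col-0 replicate 2 or 3 or phyAB replicate 3, with values between -0.18 and -0.17 and adjusted p-values of 0.0686 to 0.0801. Its call was also lost with only the compared groups (-0.185, adjusted p = 0.0734). NRT2:1 had 4.81, 7.75 and 10.2 CPM in phyAB roots, against 14.4, 35.2 and 23.9 CPM in Col-0 roots (-1.71 ± 0.28, adjusted p = 9.71e-05). The phyAB libraries all lay below the Col-0 libraries, as those of hy5 did. The reduction genes did not pass, with changes between -0.16 for NIA1 and 0.08 for NIR1. The comparisons of hy5 and of phyAB with Col-0 share the Col-0 libraries, so the like directions of LBD37, LBD38, LBD39 and NRT2:1 are not independent of each other. Marker sums differed too, with 5677 to 6200.1 CPM of root markers in phyAB roots and 7736 to 9390.1 CPM in Col-0 roots, and 106 to 181 CPM of shoot markers in phyAB roots and 271 to 340.4 CPM in Col-0 roots, none of the genes at 0, and their part in these differences was not tested. HY5 itself was lower in phyAB roots at 21 °C, with 24.2 ± 3.21 CPM against 48.5 ± 4.97 CPM in Col-0 roots. At 27 °C HY5 was lower too, with 18.6 ± 1.22 CPM in phyAB roots against 48.5 ± 2.27 CPM in Col-0 roots. Its part in the differences at either temperature was not tested.

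At 27 °C, 5 members were higher in phyAB roots than in Col-0 roots (background 14.6%) and 1 was lower (16.6%). LBD37 (0.61 ± 0.059), NIR1 (0.48 ± 0.10), NIA2 (0.39 ± 0.11), NRT1.1 (0.37 ± 0.13) and LBD39 (0.23 ± 0.073) were higher and LBD38 (-0.22 ± 0.066) was lower. NRT2:1 did not pass here, with 2.18, 2.95 and 3.01 CPM in phyAB roots, against 4.48, 2.28 and 4.03 CPM in Col-0 roots (-0.42 ± 0.37, adjusted p = 0.431). Leaving out single libraries left 3 to 5 of the 6 calls. NRT1.1 was lost without Col-0 replicate 2 or 3 or phyAB replicate 1 or 3 (0.25 to 0.40, adjusted p = 0.0734 to 0.204), and LBD39 without Col-0 replicate 2 or 3 or phyAB replicate 3 (0.19 to 0.22, adjusted p = 0.0663 to 0.0966). LBD38 was lost without Col-0 replicate 1 or 3 (-0.19 and -0.18, adjusted p = 0.0617 and 0.079), and NIA2 without phyAB replicate 2 (0.29, adjusted p = 0.0709). Without both phyAB root libraries of conflicting source name, LBD38 did not pass at 21 °C (-0.17, adjusted p = 0.0946), nor did LBD39 (0.20, adjusted p = 0.076) and NRT1.1 (0.32, adjusted p = 0.11) at 27 °C. At 27 °C root markers summed to 6546 to 6786 CPM in phyAB roots and 8699 to 10666 CPM in Col-0 roots, and shoot markers to 195 to 446 CPM in phyAB roots and 628 to 770.2 CPM in Col-0 roots, and their part in these differences was not tested.

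In phyAB shoots the nitrite reductase gene was lower than in Col-0 at both temperatures. NIR1 had 239.9, 222 and 233 CPM in phyAB shoots, against 413, 441 and 391 CPM in Col-0 shoots at 27 °C (-0.84 ± 0.070, adjusted p = 5.67e-08). At 21 °C it had 253, 270.5 and 306 CPM in phyAB shoots, against 437, 448 and 414 CPM in Col-0 shoots (-0.65 ± 0.070, adjusted p = 1.61e-06). The genotypes did not overlap at either temperature. At 27 °C, 1 member was higher in phyAB (background 18.8%) and 5 were lower (23.7%), and at 21 °C 3 were higher (18%) and 3 lower (20.2%). G6PD3 was lower at 27 °C (-0.54 ± 0.12) and at 21 °C (-0.40 ± 0.11), and so was NRT1.1 (-0.21 ± 0.080 at 27 °C and -0.37 ± 0.079 at 21 °C). LBD38, which was lower in phyAB roots, was higher in phyAB shoots, by 0.29 ± 0.065 at 27 °C and 0.39 ± 0.065 at 21 °C. LBD37 did not pass at 27 °C (0.11 ± 0.056) and was higher at 21 °C (0.33 ± 0.057). WR3 (-0.31 ± 0.12, adjusted p = 0.051), NRT2:1 (-0.77 ± 0.41), NIA2 (0.05 ± 0.10) and LBD39 (-0.09 ± 0.079) did not pass at 21 °C. WR3 passed without the filter on low counts (adjusted p = 0.0439) and with DESeq2 size factors in edgeR (adjusted p = 0.0499), but not with DESeq2 itself. With only the compared groups WR3 (-0.30, adjusted p = 0.00635) and NRT2:1 (-0.75, adjusted p = 0.0219) passed. WR3 also passed with the replicate numbers as a block (-0.31, adjusted p = 0.0304), in a comparison whose numbers do not pair the libraries.

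NIA1 in phyAB shoots lay on opposite sides of Col-0 at the 2 temperatures, lower than in Col-0 at 27 °C (-0.64 ± 0.18, adjusted p = 0.00738) and higher at 21 °C (0.48 ± 0.18, adjusted p = 0.043). The value at 21 °C did not pass with DESeq2 (0.48, adjusted p = 0.0589), nor without phyAB replicate 2 or 3 or Col-0 replicate 1 or 2 (0.35 to 0.41, adjusted p = 0.14 to 0.181). Nor did it pass with only the compared groups (0.49, adjusted p = 0.075). NIA2 at 27 °C stood just outside the threshold in edgeR (-0.24 ± 0.10, adjusted p = 0.0544). It passed with the replicate numbers as a block (-0.24, adjusted p = 0.0377), in a comparison counted as paired from the data alone, and with DESeq2 (-0.23, adjusted p = 0.0482). It also passed without the filter on low counts (-0.24, adjusted p = 0.0451), with only the compared groups (-0.21, adjusted p = 0.0294) and without Col-0 replicate 3 (-0.28, adjusted p = 0.0459). The calls on LBD39 (-0.24 ± 0.079) and NRT1.1 at 27 °C were lost without single libraries, LBD39 without Col-0 replicate 3 or phyAB replicate 1 or 3 (-0.23 to -0.15, adjusted p = 0.0529 to 0.142) and NRT1.1 without Col-0 replicate 1 or any phyAB replicate (-0.23 to -0.10, adjusted p = 0.0522 to 0.281). Both calls were also lost with only the compared groups, LBD39 (-0.21, adjusted p = 0.0639) and NRT1.1 (-0.19, adjusted p = 0.121). NRT2:1 did not pass at 27 °C (1.06 ± 0.65, adjusted p = 0.202) and passed without Col-0 replicate 3 (adjusted p = 0.00167), the library that held 14 of its reads, with no fold given. Without all 3 shoot libraries numbered 3 at 27 °C, 2 members were higher and 3 lower at 27 °C, since NRT2:1 passed (adjusted p = 0.00278) and LBD39 (-0.14, adjusted p = 0.233) and NRT1.1 (-0.26, adjusted p = 0.0632) did not. Seed storage and oil body transcripts marked the same phyAB shoots, with a summed level over 10 genes of 251 to 1406 CPM at 27 °C and 374 to 2739.9 CPM at 21 °C, none of the 10 at 0. In Col-0 shoots the sum was 1.64 to 2.10 CPM at 27 °C and 2.11 to 2.45 CPM at 21 °C, with 2 to 5 of the 10 at 0. Summed shoot markers were also lower in phyAB shoots at both temperatures, with 112473 to 127953 CPM, against 158513 to 163947 CPM in Col-0 shoots at 27 °C. Their part in the differences between phyAB and Col-0 shoots was not tested.

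In shoots labelled hy5, whose HY5 transcript did not differ from Col-0, few members differed. At 21 °C, 2 were higher (background 8.99%) and 1 lower (8.94%): NIR1 (0.23 ± 0.070, adjusted p = 0.0281), LBD39 (0.24 ± 0.079, adjusted p = 0.0404) and NRT2:1 (-1.55 ± 0.45, adjusted p = 0.023). Without Col-0 replicate 1 or 3 or hy5 replicate 2 or 3, NIR1 was not called (0.20 to 0.24, adjusted p = 0.0601 to 0.105). Without Col-0 replicate 2 or 3 or hy5 replicate 1 or 2, LBD39 was not called (0.17 to 0.25, adjusted p = 0.0688 to 0.199), and without Col-0 replicate 1 or 3 or hy5 replicate 1 or 2, NRT2:1 was not called (-1.54 to -1.34, adjusted p = 0.0537 to 0.0906). With only the compared groups LBD39 was not called (0.24, adjusted p = 0.0569), while NIA2 passed (0.22, adjusted p = 0.0465). NIA1 passed without Col-0 replicate 3 or hy5 replicate 1 (0.65 and 0.61, adjusted p = 0.0306 and 0.0313) and LBD37 without Col-0 replicate 1 or hy5 replicate 3 (0.19 and 0.20, adjusted p = 0.049 and 0.0252). NRT2:1 had 0.826, 0.551 and 1.12 CPM in shoots labelled hy5, from 9 to 24 reads, against 2.50, 2.32 and 2.62 CPM in Col-0 shoots, without overlap. At 27 °C edgeR called 0 of 10 members (background 6.18% higher and 6.06% lower), DESeq2 called 0, and 1 had an unadjusted p under 0.05, WR3 (0.37 ± 0.14). WR3 passed without the shoot libraries numbered 3 at 27 °C (0.50, adjusted p = 0.0492). Apart from NRT2:1, with 0 to 2 reads in each of these hy5 libraries, the intervals of the members at 27 °C lay between -0.48 and 0.68 on the log2 scale. Summed root markers were 2365 to 2581 CPM in shoots labelled hy5 and 3769 to 3879 CPM in Col-0 shoots at 27 °C. At 21 °C they were 2261 to 2733 CPM in shoots labelled hy5 and 3852 to 4119 CPM in Col-0 shoots. Summed seed markers at 21 °C were 3.25 to 9.52 CPM in shoots labelled hy5 and 2.11 to 2.45 CPM in Col-0 shoots. The part of these markers in the values of either temperature was not tested.

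Whether the mutants respond to warmth differently from Col-0 was tested on the difference of the responses. In roots G6PD3 fell more in hy5 than in Col-0 (difference -0.73 ± 0.13, edgeR adjusted p = 0.0104), the only member called, against a background of 0.413% of genes. Its level was higher in hy5 than in Col-0 at 21 °C and did not differ by the test at 27 °C. NIA1 had a difference of the same sign that did not pass (-0.66 ± 0.23, adjusted p = 0.291). In phyAB roots edgeR called 0 members (background 0.0983%) and DESeq2 0, while 5 had an unadjusted p under 0.05, among them NRT1.1 (0.61 ± 0.19, adjusted p = 0.251) and NRT2:1 (1.28 ± 0.47, adjusted p = 0.373). In shoots NIA1 rose less in phyAB than in Col-0 (difference -1.12 ± 0.25, adjusted p = 0.0212, background 3.51%). This call was lost without phyAB replicate 2 or 3 at 21 °C or without Col-0 replicate 2 at either temperature, with values between -1.04 and -0.99 and adjusted p-values of 0.0523 to 0.0672, and it was lost without the 3 shoot libraries numbered 3 at 27 °C (adjusted p = 0.072), where NRT2:1 passed instead (adjusted p = 0.0206). A further pair of members passed once a single library was left out, NRT2:1 without Col-0 replicate 3 at 27 °C (adjusted p = 0.0135, no fold given) and NIA2 without phyAB replicate 1 at 21 °C (-0.42, adjusted p = 0.0333). In shoots labelled hy5 edgeR called 0 members (background 0.00498%) and DESeq2 0, and 2 had an unadjusted p under 0.05, NIA1 (-0.57 ± 0.25) and LBD37 (-0.18 ± 0.080).

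The order of the 6 root groups differed between genes. For NIR1 hy5 roots at 21 °C stood highest (814 ± 101 CPM), phyAB and Col-0 roots at 21 °C overlapped below them, hy5 and phyAB roots at 27 °C overlapped next, and Col-0 roots at 27 °C stood lowest. NIA1 had the same top group, and its 3 groups at 27 °C, between 31.9 ± 5.56 CPM in Col-0 roots and 43.5 ± 5.33 CPM in hy5 roots, overlapped with their neighbours. LBD39 had hy5 roots at 21 °C on top, then phyAB roots at 21 °C and hy5 roots at 27 °C, and each group stood apart from the next, with Col-0 roots at 27 °C last (38.2 ± 2.63 CPM). For LBD37 the 4 mutant groups, from 180.4 ± 10.4 to 199 ± 5.37 CPM, stood above both Col-0 groups. LBD38 ran the other way, with Col-0 roots at 21 °C highest (123 ± 5.80 CPM) and hy5 roots at 27 °C lowest (65.2 ± 3.00 CPM). NRT2:1 had Col-0 roots at 21 °C on top, phyAB roots at 21 °C next and hy5 roots at 27 °C at the foot, each apart from its neighbours.

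The wider nitrogen lists give the setting of these 10 genes. In Col-0 roots 9 of 11 genes of cofactors and reductant fell at 27 °C and 1 rose, and 7 of 14 genes of ammonium uptake and assimilation fell and 1 rose, against a background of 21.8% of genes lower and 21.7% higher. Their median log2 fold changes were -0.50 and -0.48, against 0.00 over all genes tested. Root ferredoxin FD3, the electron donor of nitrite reductase in roots, had 167 ± 4.10 CPM at 27 °C and 290.4 ± 23.0 CPM at 21 °C (-0.80 ± 0.077). RFNR2, a root ferredoxin reductase (-1.52 ± 0.080), fell, as did AT5G41670, annotated as a 6-phosphogluconate dehydrogenase (-1.09 ± 0.076). The cytosolic glutamine synthetase gene GLN1;2 (-1.07 ± 0.12), the ammonium transporter gene AMT1;3 (-1.02 ± 0.14) and the glutamate synthase gene GLT1 (-0.93 ± 0.11) fell. Of 16 other nitrate transport genes tested 6 rose and 2 fell, with a median of 0.08. NRT1.5, which loads nitrate into the xylem, had 1071 ± 100.1 CPM at 27 °C and 363 ± 57.2 CPM at 21 °C (1.56 ± 0.14, adjusted p = 1.55e-07), the opposite direction to the 3 uptake members. AT2G26690 rose by 0.83 ± 0.24, and NRT2.4, below 1 CPM in both groups, fell (-2.69 ± 0.63). Among 23 signalling genes tested 3 rose and 7 fell, beside the same background shares, with a median of -0.17, led by AT1G06830 (-2.95 ± 0.36), annotated as a glutaredoxin, AT4G32950 (-2.47 ± 0.73), annotated as a protein phosphatase, and the NIN-like factor gene NLP8 (-1.36 ± 0.20).

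In Col-0 shoots 7 of 11 genes of cofactors and reductant fell at 27 °C and none was called higher by edgeR, 7 of 14 of ammonium uptake and assimilation fell and 3 rose, 6 of 17 other transport genes fell and 5 rose, and 9 of 24 signalling genes fell and 5 rose, against a background of 23.2% of genes lower and 22.5% higher. The medians were -0.25, -0.30, 0.01 and -0.08, against 0.01 over all genes tested. Asparagine synthetase ASN1 had 39.5 ± 17.0 CPM at 27 °C and 0.936 ± 0.503 CPM at 21 °C (5.39 ± 0.54, adjusted p = 3.93e-07). BT2 (2.36 ± 0.30) and BT1 (2.17 ± 0.23), which encode BTB scaffold proteins of the nitrate response, rose with it. NRT1.11, a nitrate transporter of the phloem, rose by 0.97 ± 0.13, while NRT2.3 (-2.56 ± 0.26), NRT1.8 (-1.27 ± 0.23) and AMT1;3 (-1.81 ± 0.20) fell. RFNR2 (-1.23 ± 0.11), AT5G41670 (-1.21 ± 0.080), AT1G64190 (-0.51 ± 0.053), annotated as another 6-phosphogluconate dehydrogenase, GLN1;1 (-1.16 ± 0.16) and the glutaredoxin gene AT2G47880 (-2.98 ± 0.46) also fell. In hy5 roots at 21 °C 9 of the 11 genes of cofactors and reductant were higher than in Col-0 (background 16.7%), beside the 4 reduction members. At 27 °C 4 of the 11 were higher (background 16%) and 1 was lower (17.4%). Of the 14 genes of ammonium uptake and assimilation, 8 were higher and 4 lower in hy5 roots at 21 °C (backgrounds 16.7% and 18.4%).

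Transcripts whose levels followed NIR1 and LBD38 most closely over the 18 libraries of an organ were listed by Pearson correlation of log2 CPM, a description of libraries that share their 6 groups. In roots FD3 came first for NIR1 (r = 0.987), followed by ERF1-1, GSTF14, AT1G09640 and AT5G06110 (r = 0.978 to 0.981). For LBD38 in roots mSFC1 came first (r = 0.969), followed by GSA1, GPT1, Prx37 and SPS2 (r = 0.957 to 0.966). In shoots cpHsc70-1 came first for NIR1 (r = 0.973), followed by PDF1A, FTSH12, AT5G11880 and OVA6, and AT4G09160 and AT3G12710 for LBD38 (both r = 0.956), followed by MYB59, AT3G20820 and RD26. No gene was on the lists of both organs.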

How the data were processed

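RNA of seedling roots and shoots was made into stranded mRNA libraries and read singly over 50 bases, per the labels' protocols. Per the submitters' processing notes, FastQC, TopHat2, HTSeq, edgeR and the TAIR10 build were used, and the sources used here give neither versions nor the strand setting. The deposited values are whole-number counts of reads per locus, before any scaling by the authors. The 5 summary categories were left out of library sizes, and reads with more than 1 place came to 5.00% to 10.4% of a root library and 8.29% to 34.6% of a shoot library.

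Libraries were grouped by genotype, organ and day temperature as their titles give them. The counts were fitted with edgeR 4.0.16 (R 4.3.3, TMM, filterByExpr, quasi-likelihood test), with 1 mean per group, in 18 root libraries (20355 genes), 18 shoot libraries (20100 genes) or all 36 (21598 genes). All 10 members passed the filter in each fit. The Benjamini-Hochberg adjustment ran over every gene of a fit, with a threshold of 0.05, in 22 comparisons. CPM were scaled with the TMM factors of the fit named, so root, shoot and joint scales cannot be set side by side, and RPKM divide joint CPM by exon length. The SE is the absolute log2 fold change over the square root of the F statistic. The test was run on simulated counts with 200 genes changed in 1 group. Far more genes were called in most of these comparisons, so that run does not check the scaling under changes this wide. Replicates differed by more than counting noise, with a chi-square per degree of freedom of 3.27 to 15.2 in 36 pairs.

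Replicate numbers were checked by the correlation of deviations from group means. In 3 of 15 pairs of groups every same-numbered pair exceeded 0.1, namely 27 °C and 21 °C of phyAB roots, and each mutant with Col-0 in shoots at 27 °C, and these count as paired, from the data alone. Alternatives were DESeq2 1.42.0, its size factors in edgeR, no low-count filter, a replicate block, only the compared groups, and leaving out single libraries, both phyAB root libraries of conflicting source name or, chosen after the data were seen, the 3 shoot libraries numbered 3 at 27 °C.

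The members and lists were chosen with earlier results of these data known. Every member is named, and of each other list up to 3 genes with the largest called change in Col-0, besides the 5 genes most like NIR1 and LBD38. Names, coordinates and sequences come from TAIR10.1 of RefSeq. Of 122 list entries 121 were kept and 110 have a name there.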

Additional observations from a re-analysis of the deposited data

Results flagged for a closer look

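Each result here is a difference between 2 responses to warmth, 27 °C minus 21 °C, that passed edgeR's quasi-likelihood test of the difference itself at an adjusted p of 0.05. Values are log2 differences with their SE, from 3 libraries per group.

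Between genotypes, the response of G6PD3 in roots was lower in hy5 than in Col-0 (-0.73 ± 0.13, adjusted p = 0.0104), and that of NIA1 in shoots was lower in phyAB than in Col-0 (-1.12 ± 0.25, adjusted p = 0.0212). The values of G6PD3 kept their call in every alternative run, and those of NIA1 did not without the single libraries named in the report, nor without the 3 shoot libraries numbered 3 at 27 °C (adjusted p = 0.072).

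Between root and shoot of Col-0, the differences were -2.93 ± 0.27 for NIA1, -1.48 ± 0.16 for NIA2, -1.14 ± 0.13 for NIR1, -0.54 ± 0.081 for LBD37, -0.66 ± 0.10 for LBD38 and -0.66 ± 0.11 for LBD39, and 0.65 ± 0.18 for WR3. Between root and shoot of hy5 they were -3.01 ± 0.26 for NIA1, -1.42 ± 0.16 for NIA2, -1.23 ± 0.13 for NIR1, -1.09 ± 0.15 for G6PD3, -0.34 ± 0.081 for LBD37, -0.75 ± 0.10 for LBD38 and -0.80 ± 0.11 for LBD39. Between root and shoot of phyAB they were -1.37 ± 0.26 for NIA1, -0.73 ± 0.16 for NIA2, -0.53 ± 0.13 for NIR1, -0.58 ± 0.10 for LBD38 and -0.78 ± 0.11 for LBD39. NIA1, NIA2, NIR1, LBD38 and LBD39 were thus called in all 3 genotypes, and whether the organ difference itself differs between genotypes was not tested.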

How the results depend on the processing

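Of 1209 values of single genes under the alternatives other than leaving out 1 library, 1170 kept their direction and side of the threshold, 15 called values were lost, 24 were gained and 0 called values changed sign. Of 1740 values with 1 library left out, 1667 were kept, 56 were lost, 17 were gained and 0 changed sign. Counts of called members stayed within 1.5 times the reported count in 22 comparisons under each alternative except these. With 1 library left out, the count for phyAB minus Col-0 in roots at 27 °C was 3 to 5 (reported 6), that for hy5 minus Col-0 in shoots at 21 °C 0 to 3 (reported 3), and that for the response of phyAB minus Col-0 in shoots 0 to 2 (reported 1). Without the 3 shoot libraries numbered 3 at 27 °C, the count for hy5 minus Col-0 in shoots at 27 °C was 1 (reported 0), from WR3 (0.50, adjusted p = 0.0492). The cause was not tested. With the replicate numbers as a block, Col-0 roots had 10 members called at 27 °C against 21 °C and hy5 roots 10, in comparisons whose numbers do not pair the libraries. In the 3 comparisons counted as paired the block changed no call other than that of NIA2 in phyAB shoots at 27 °C. Depth limits NRT2:1 in shoots, which had at most 59 reads in a Col-0 library.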

Other observations

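Some genes of the wider nitrogen lists also passed the test of a difference between responses to warmth, and they were named after their values were seen. In roots 3 of 11 genes of cofactors and reductant had a lower response in hy5 than in Col-0 (background 0.413% of genes called in either direction), beside G6PD3. They were AT5G41670 (-0.73 ± 0.11 SE, edgeR adjusted p = 0.00494) and AT1G64190 (-0.48 ± 0.081, adjusted p = 0.00893), both annotated as 6-phosphogluconate dehydrogenases, and the root ferredoxin reductase gene RFNR1 (-0.63 ± 0.10, adjusted p = 0.00711). In shoots 4 of 66 genes of these lists passed between phyAB and Col-0. That count is not far from the background of 3.51% of genes called in either direction, so it says little about the lists. The responses of ASN1, an asparagine synthetase gene (-3.37 ± 0.69, adjusted p = 0.013), BT1 (-1.42 ± 0.31, adjusted p = 0.0195) and CLC-A, a nitrate carrier of the vacuole (-0.55 ± 0.12, adjusted p = 0.0149), were lower in phyAB, and that of NRT1.7, a nitrate transporter of source leaves, was higher (0.67 ± 0.15, adjusted p = 0.0179).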
